A study of Mus musculus with 7 samples.

Results

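The genes described here had a TPM (transcript abundance scaled for gene length and library depth) of at least 10 in each of 5 mouse cell populations and lower values in the other 2. They were chosen by these values. For each of the 7457 genes, of 29267 in the tables, that reached 10 TPM in mES GFP-, 5C GFP+, 5C GFP-, 5C GFP+ (primed) and R1 ESC (primed), a score was taken as the lowest log2(TPM + 1) of these 5 minus the larger log2(TPM + 1) of mES GFP+ and 5C GFP+ (naive), and the 150 genes with the highest scores were kept. All 7 libraries entered this choice, so the distance between the 2 low libraries and the other 5 is a description of what was selected. The working name for these genes was silent, but both low libraries were below 1 TPM for 20 of the 150 genes only. For 82 genes the larger of the 2 values was at least 1 and below 5 TPM, for 24 it was at least 5 and below 10 TPM, and for 24 it was at least 10 TPM. Most of the 150 genes were therefore low rather than off in the naive-like cells. The choice rests most on 5C GFP+, since only 76 of the 150 genes stay among the highest 150 scores without that library.

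Naive pluripotent cells resemble the epiblast of the blastocyst before implantation, and primed cells resemble the epiblast after it. The step between them depends on FGF signalling through the kinases MEK and ERK, which switches on immediate early genes such as Egr1 and feedback inhibitors of the Dusp and Sprouty families, and a MEK inhibitor is part of the 2i medium that holds mouse cells in the naive state. Actin, adhesion and epithelial genes are also reorganised in the epiblast at this time.

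The study asked whether and how the serum-free 5C medium, which holds bFGF and LIF, affects the reprogramming of fibroblasts. It examined the epithelial-mesenchymal transition (EMT) and the switch from oxidative phosphorylation to glycolysis. The state of the resulting pluripotent cells was also set beside naive and primed cells. In all but the R1 library the cells came from OG2 mouse embryonic fibroblasts of 13.5-day embryos, which carry a GFP transgene under the Oct4 promoter without its proximal enhancer. The 4 reprogramming factors Oct4, Klf4, c-Myc and Sox2 had been delivered to them by retrovirus. They were cultured in mES medium, which contains serum and LIF, or in 5C medium, and sorted by GFP on day 15. This gave mES GFP+, mES GFP-, 5C GFP+ and 5C GFP- (0 passages each). 5C GFP+ cells were then moved to naive medium, with LIF, the GSK3 inhibitor CHIR99021 and the MEK inhibitor PD0325901, or to primed medium, with bFGF and activin A, and both libraries carry a label of 20 passages. R1 ESC (primed) is the mouse embryonic stem cell line R1 brought to the primed state, also with 20 passages on its label, and it was not made by reprogramming. According to the methods for R1 cells, the primed state was induced on MEF feeder cells and maintained with CHIR99021 and the Wnt inhibitor IWR-1 in place of bFGF and activin A. The feeders of the other converted cells are not given in the sources used here.

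Each population was sequenced as 1 library. No test between populations was possible, and all intervals below are exact Clopper-Pearson 95% intervals of counting error, from expected counts (reads assigned by the authors' software) rounded to whole numbers. The libraries held 6108252 to 11496615 expected counts. The naive marker Zfp42 had 337.06 TPM in mES GFP+ and 355.29 TPM in 5C GFP+ (naive), against 0 and 6.02 TPM in the primed libraries, but 5C GFP+ also had 219.41 TPM. Pou5f1 (Oct4) was at 1321.12 TPM or more in all 7 libraries. In all but R1 ESC (primed), reads of the gene and of the retroviral Oct4 cannot be told apart. Although the labels give fibroblast as the cell type of all populations but R1, fibroblast markers were low in the sorted GFP+ cells and in the cells from naive medium. Of 18 such markers, 8 reached 1 TPM in each of mES GFP+, 5C GFP+ and 5C GFP+ (naive), where they summed to 22.9, 37.2 and 22.3 TPM. They summed to 1278 TPM in mES GFP-, 596 TPM in 5C GFP-, 136 TPM in 5C GFP+ (primed) and 381 TPM in R1 ESC (primed), and 16 to 18 of them reached 1 TPM there. Fap and Twist2 were at 0 in both low libraries. In these bulk libraries, fewer cells that express a gene and less RNA per cell cannot be told apart.

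The median member had 3.125 TPM in mES GFP+ and 2.285 TPM in 5C GFP+ (naive). In the other libraries the median was 68.21 TPM in mES GFP-, 63.03 TPM in 5C GFP-, 39.24 TPM in 5C GFP+ (primed), 38.475 TPM in R1 ESC (primed) and 32.18 TPM in 5C GFP+. The GFP- libraries thus held the highest member levels and 5C GFP+ the lowest of the 5. mES GFP- was the highest of the 5 libraries for 67 members (44.7%, against 26.3% of the 7457 genes) and 5C GFP+ was the lowest for 63 (42%, against 27.8%). The scores ran from 5.46 to 1.57 with a median of 2.19, and the lowest of the 5 TPM values was a median of 5.91 times the larger of the 2 low values. In 148 members the lower bound of this ratio was above 2, and the 2 exceptions were Rab25 and Nrtn. The rule ranked genes by this same gap, so high ratios and bounds were built into the choice and are no result. Here and below, the intervals of such ratios do not allow for the choice of genes or of the lowest and highest library. Among the 5 libraries the members were spread more widely than other genes, with a median of 3.61-fold between the highest and the lowest, against 1.88-fold for the 7457 genes. This fold was under 2 for 21 members and over 10 for 23.

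**Figure D1:**
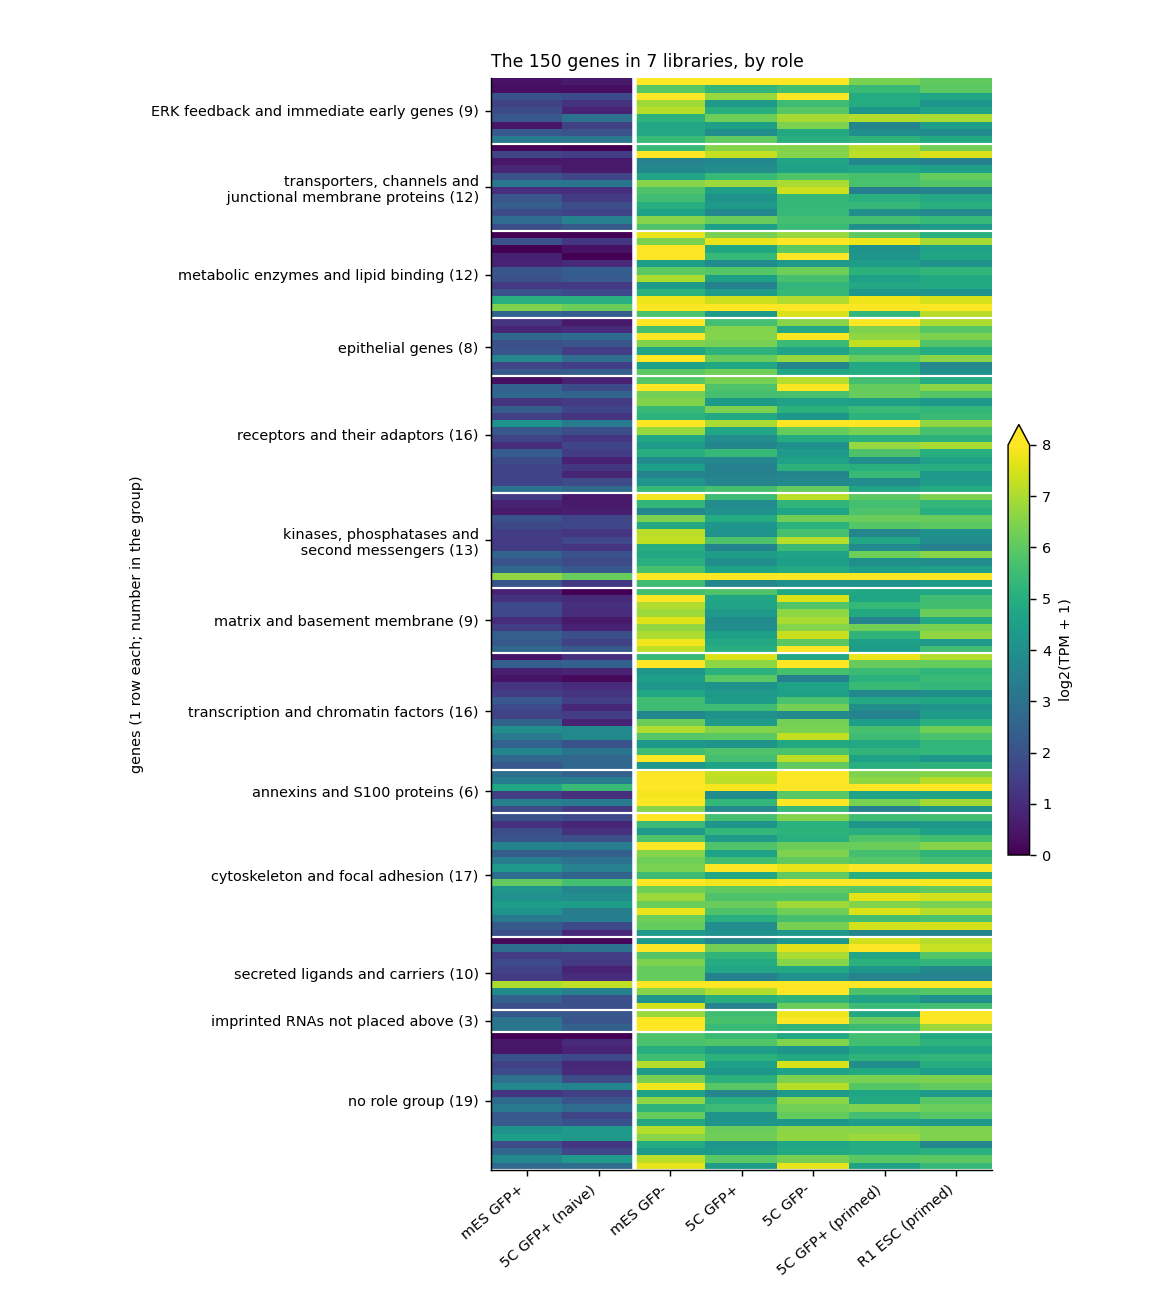
Level of each of the 150 genes (rows) in the 7 libraries (columns) as log2(TPM + 1), with values above 8 in the last colour and the genes grouped by role and then by score. The 2 columns left of the white line are the low libraries, and the strongest colours are in mES GFP- and 5C GFP-, for example in the annexins and S100 proteins.

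Immediate early and ERK feedback genes made up 9 members, and they included the gene with the highest score. Egr1, a zinc finger factor transcribed within minutes of ERK activation (ENSMUSG00000038418, chromosome 18, 34859823 to 34864984 on GRCm38), had 0.32 TPM in mES GFP+ and 0.5 TPM in 5C GFP+ (naive), from 4 and 7 reads. It had 500.12 TPM in mES GFP-, 253.14 TPM in 5C GFP+, 567.66 TPM in 5C GFP-, 83.78 TPM in 5C GFP+ (primed) and 64.88 TPM in R1 ESC (primed). Even the lowest of the 5 was 130 times the larger low value (62.7 to 324). Both primed libraries were below mES GFP-, 5C GFP+ and 5C GFP-. Dusp4, a nuclear phosphatase that inactivates ERK, was more even. It had 0.23 and 0.24 TPM in mES GFP+ and 5C GFP+ (naive), and 59.91, 37.77, 47, 41.54 and 62.57 TPM in mES GFP-, 5C GFP+, 5C GFP-, 5C GFP+ (primed) and R1 ESC (primed), a 1.66-fold range among the 5.

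Unlike Egr1, the cytoplasmic ERK phosphatase gene Dusp6 was highest in the primed libraries. It had 3.53 TPM in mES GFP+ and 7 TPM in 5C GFP+ (naive), against 34.71 TPM in mES GFP-, 73.72 TPM in 5C GFP+, 119.25 TPM in 5C GFP-, 135.31 TPM in 5C GFP+ (primed) and 125.25 TPM in R1 ESC (primed). Jun, a subunit of the AP-1 factor, had 3.08 and 2.51 TPM in the low libraries. It had 294.1 TPM in mES GFP-, 337.11 TPM in 5C GFP- and 108.01 TPM in 5C GFP+, but 29.6 TPM in 5C GFP+ (primed) and 25.34 TPM in R1 ESC (primed), so both primed libraries were again the lowest of the 5. Spry4, a Sprouty inhibitor of receptor signalling, had 0.4 and 1.92 TPM in the low libraries and peaked at 84.44 TPM in 5C GFP-, against 11.8 to 26.61 TPM in the other 4. The remaining members of this kind were Dusp5, an ERK phosphatase (at most 2.63 TPM in the low libraries and 17.82 to 141.28 TPM in the others), the small Maf protein gene Maff (at most 1.95, and 17.51 to 114.29 TPM), Ier5 (at most 3.75, and 13.47 to 28.23 TPM) and the pseudokinase gene Trib1 (at most 8.83, and 28.28 to 64.63 TPM).

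**Figure D2:**
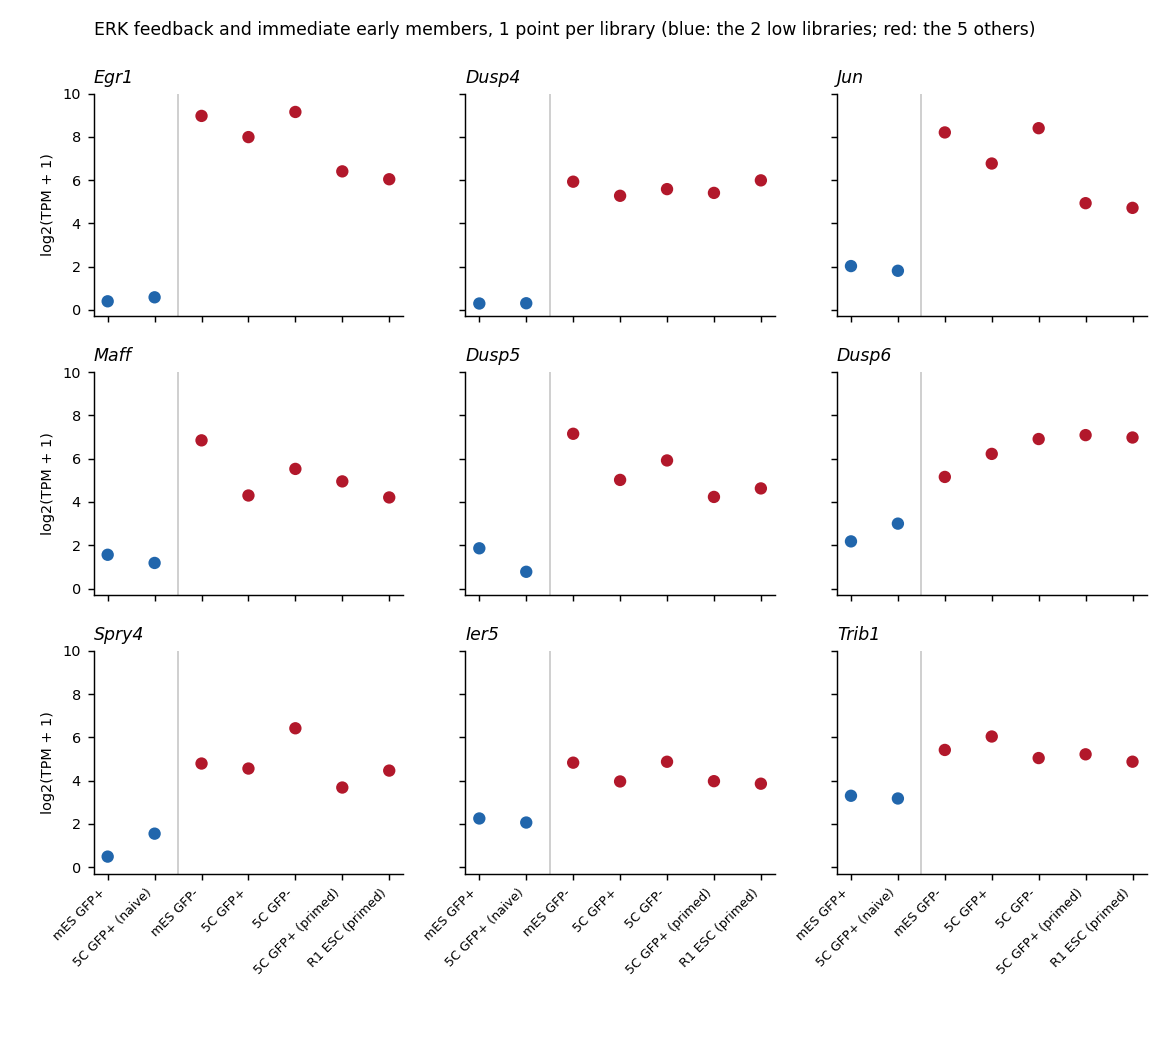
Levels of the 9 ERK feedback and immediate early members, as log2(TPM + 1) with 1 point per library. Blue points are the 2 low libraries and red points the other 5. Egr1 and Jun are higher in mES GFP-, 5C GFP+ and 5C GFP- than in both primed libraries. Dusp6 is lowest in mES GFP- among the red points and Dusp4 is nearly level.

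Other genes of the same pathways were read from lists. Members are left out of every list count below, since the rule fixed their direction. A gene counted as lower when log2(TPM + 1) differed by 1 or more, that is 2-fold, among genes with at least 1 TPM in either library. After naive medium 17.5% of all genes were lower than in 5C GFP+ and 10% were higher, and in mES GFP+ 28.8% were lower than in mES GFP- and 17.9% higher. Of the AP-1 and immediate early genes, 14 of 14 tested were lower in 5C GFP+ (naive) than in 5C GFP+ and 14 of 15 in mES GFP+ than in mES GFP-, with median differences of -2.55 and -4.04. Over all genes the medians were -0.10 and -0.15. Only 3 of the 18 genes on the list are members, and only 8 of the 18 reached 10 TPM in each of the 5 libraries. Fos had 227.84 TPM in 5C GFP+ and 1.87 TPM in 5C GFP+ (naive), but 9.05 TPM in 5C GFP+ (primed) and 6.37 TPM in R1 ESC (primed). Ier2 and Junb stayed higher in the low libraries, at 65.92 and 68.1 TPM for Ier2 and 19.21 and 16.66 TPM for Junb in mES GFP+ and 5C GFP+ (naive).

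The ERK feedback list was more mixed than the immediate early list. In 5C GFP+ (naive) 6 of 13 tested genes were lower and 1 was higher than in 5C GFP+, and in mES GFP+ 8 of 14 were lower and 1 was higher than in mES GFP-. The 4 members on it were Dusp4, Dusp5, Dusp6 and Spry4. The ETS factor gene Etv5 kept 213.21 TPM in mES GFP+ and 191.57 TPM in 5C GFP+ (naive), against 127.72 and 139.07 TPM in 5C GFP+ (primed) and R1 ESC (primed). The Sprouty gene Spry2 had 76.73 and 72.71 TPM in the low libraries and 35.6 to 106.57 TPM in the others.

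Annexins and S100 proteins bind calcium and membranes, often as pairs. They gave 5 members, and the same list held Ahnak2, a giant scaffold protein gene. Anxa2 (ENSMUSG00000032231, chromosome 9, 69453620 to 69491795) had 6.34 and 4.69 TPM in mES GFP+ and 5C GFP+ (naive). It reached 2035.7 TPM in mES GFP-, 756.57 TPM in 5C GFP- and 153.07 TPM in 5C GFP+, and had 85.95 and 89.63 TPM in 5C GFP+ (primed) and R1 ESC (primed). S100a10, whose protein pairs with that of Anxa2, had 27.01 and 42.23 TPM in the low libraries and 1138.31, 236.26, 548.51, 459.77 and 356.38 TPM in mES GFP-, 5C GFP+, 5C GFP-, 5C GFP+ (primed) and R1 ESC (primed). Both genes were highest in mES GFP-, but in the primed libraries S100a10 was above 5C GFP+ and Anxa2 below it. S100a6 spanned 97.74 TPM in 5C GFP+ (primed) to 3114.1 TPM in mES GFP-, a 31.9-fold range. Anxa3 had at most 1.77 TPM in the low libraries and 13.91 to 231.89 TPM in the others, Anxa5 at most 10.39 and 38.38 to 290.75 TPM, and Ahnak2 at most 2.52 and 10.38 to 91.53 TPM. Of 15 other genes tested from this list, 8 were lower in 5C GFP+ (naive) than in 5C GFP+ and 13 in mES GFP+ than in mES GFP-. S100a11 had 368.55 and 446.5 TPM in the low libraries and is no member.

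Genes of the cytoskeleton and focal adhesions formed the largest role group, with 17 members. Many were not near 0 in the low libraries. Tagln2, a calponin-like actin binding protein, had 66.32 TPM in mES GFP+ and 47.34 TPM in 5C GFP+ (naive), against 538.81, 226.29, 379.34, 489.66 and 240.87 TPM in mES GFP-, 5C GFP+, 5C GFP-, 5C GFP+ (primed) and R1 ESC (primed). Myl9, the regulatory light chain of smooth muscle and nonmuscle myosin, had 1.19 and 0.79 TPM from 3 reads each, and 43.17, 16.77, 33.2, 16.67 and 18.24 TPM in the same order. Cnn2 (calponin) had 16.27 and 9.18 TPM and then 53.59 to 215.05 TPM, and the LIM protein gene Pdlim7 had 15.65 and 14.06 TPM and then 53.81 to 204.89 TPM. The focal adhesion scaffold gene Bcar1 was the most even member of all, with 59.21 to 74.26 TPM in the 5 libraries (1.25-fold) and 16.87 and 11.48 TPM in the low ones. The integrin chain gene Itga3 had 3.2 and 2.85 TPM and then 18.75 to 54.69 TPM, and Lrrfip1 3.01 and 2.41 TPM and then 45.13 to 295.87 TPM. Actb, the cytoplasmic beta actin gene, is no member and had 1589.78 to 2140.02 TPM in all 7 libraries. Of the actin cytoskeleton genes that are no members, 17 of 40 tested were lower in 5C GFP+ (naive) than in 5C GFP+ and 28 of 41 in mES GFP+ than in mES GFP-.

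AP-1 binds the letters TGANTCA, and serum response factor, which drives actin and immediate early genes, binds the CArG box. Both were searched on both strands in RefSeq promoters (GRCm38.p6), from 250 bases before to 50 after a start site. Of the 18461 genes of the tables with such a promoter, 7.10% held TGANTCA and 1.51% a CArG box. A promoter was at hand for 110 of the 150 members (73.3%), so that a comparison of GC content or motif shares over the members is void and is not given. As examples, 5 promoters chosen for holding a motif before the start site are shown, and they belong to the ERK, actin and annexin groups above and to the urokinase receptor, with the motif in capitals. In Dusp5 (chr19:53528895-53529194, plus strand) 2 CArG boxes lie side by side without a shared base, 82 and 72 bases before the start. Myl9 (chr2:156775214-156775513, plus strand) holds 1 CArG box 161 bases before the start and Cnn2 (chr10:79988350-79988649, plus strand) 1 at 56 bases. Anxa2 (chr9:69453433-69453732, plus strand) holds TGANTCA 95 bases before the start and Plaur (chr7:24462233-24462532, plus strand) 69 bases before it. The 2 motifs do not overlap in any of them. Other members with a match, not printed, are Trip6 and Anxa5 with a CArG box and Capn2, Pcsk1n, Sbsn and Sema4c with TGANTCA. A match to these letters describes the sequence and does not show binding.
Dusp5: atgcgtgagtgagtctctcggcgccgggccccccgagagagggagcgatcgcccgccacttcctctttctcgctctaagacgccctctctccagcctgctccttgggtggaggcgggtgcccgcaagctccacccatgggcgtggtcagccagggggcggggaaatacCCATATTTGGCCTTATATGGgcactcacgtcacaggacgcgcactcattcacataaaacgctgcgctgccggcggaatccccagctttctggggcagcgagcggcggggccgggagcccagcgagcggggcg
Myl9: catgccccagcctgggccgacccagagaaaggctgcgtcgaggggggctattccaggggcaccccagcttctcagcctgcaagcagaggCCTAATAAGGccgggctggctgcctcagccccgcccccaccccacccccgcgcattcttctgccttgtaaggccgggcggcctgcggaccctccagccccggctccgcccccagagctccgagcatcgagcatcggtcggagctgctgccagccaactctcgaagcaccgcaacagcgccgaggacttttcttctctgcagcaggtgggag
Cnn2: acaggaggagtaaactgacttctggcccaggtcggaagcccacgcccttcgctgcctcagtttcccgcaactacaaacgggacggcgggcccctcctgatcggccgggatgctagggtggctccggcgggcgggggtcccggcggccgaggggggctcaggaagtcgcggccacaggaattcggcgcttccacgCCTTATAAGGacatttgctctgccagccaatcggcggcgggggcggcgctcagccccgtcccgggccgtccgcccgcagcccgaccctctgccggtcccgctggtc
Anxa2: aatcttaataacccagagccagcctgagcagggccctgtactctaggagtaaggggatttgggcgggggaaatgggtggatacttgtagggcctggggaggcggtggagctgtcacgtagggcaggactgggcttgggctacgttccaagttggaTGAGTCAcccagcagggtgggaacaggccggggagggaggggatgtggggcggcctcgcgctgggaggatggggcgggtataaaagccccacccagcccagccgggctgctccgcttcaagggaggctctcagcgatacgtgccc
Plaur: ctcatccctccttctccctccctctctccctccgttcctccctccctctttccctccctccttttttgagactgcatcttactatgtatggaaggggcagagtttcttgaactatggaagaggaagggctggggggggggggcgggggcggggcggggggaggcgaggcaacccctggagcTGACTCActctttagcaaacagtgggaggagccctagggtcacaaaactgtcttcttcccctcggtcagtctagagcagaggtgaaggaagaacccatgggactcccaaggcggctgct

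Plaur, the urokinase receptor, had 1.36 and 1.6 TPM in mES GFP+ and 5C GFP+ (naive), and 88.42, 19.6, 23.02, 22.35 and 18.08 TPM in mES GFP-, 5C GFP+, 5C GFP-, 5C GFP+ (primed) and R1 ESC (primed). It was thus highest in mES GFP- and nearly level in the other 4.

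Of 20 formative and primed genes in the tables, 8 reached 10 TPM in each of the 5 libraries and 3 were members. Fgf5, the ligand that marks the postimplantation epiblast (ENSMUSG00000029337, chromosome 5, 98254184 to 98277030), had 1 read in each low library, 0.12 and 0.09 TPM. It had 11.69 TPM in 5C GFP+, 18.14 TPM in 5C GFP- and 19.04 TPM in mES GFP-, against 174.67 TPM in 5C GFP+ (primed) and 139.29 TPM in R1 ESC (primed). The 5C GFP+ value was 97.4 times the larger low value (16.7 to 3755). The levels in mES GFP-, 5C GFP+ and 5C GFP- were well below those in the primed libraries. Otx2, the homeobox factor of the formative epiblast (ENSMUSG00000021848, chromosome 14, 48657677 to 48673819), had 0.41 and 1.15 TPM in the low libraries and placed 5C GFP+ beside the primed cells. It had 189.42 TPM in 5C GFP+, 214.48 TPM in 5C GFP+ (primed) and 134.39 TPM in R1 ESC (primed), against 40.07 TPM in mES GFP- and 26.48 TPM in 5C GFP-. Sall2, a zinc finger factor, had 1.34 and 1.04 TPM and then 15.82 to 40.79 TPM, with both primed libraries highest. Of the others on this list, 11 of 15 tested were lower in 5C GFP+ (naive) than in 5C GFP+ and 9 of 17 in mES GFP+ than in mES GFP-, and the de novo methyltransferase gene Dnmt3b, which is no member, had 85.81 and 114.87 TPM in the low libraries.

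Epithelial genes gave 8 members, 3 of them from the list of epithelial markers. Krt18, a keratin of simple epithelia (ENSMUSG00000023043, chromosome 15, 102028180 to 102032027), had 1.36 and 0.48 TPM in mES GFP+ and 5C GFP+ (naive), and 453.56, 48.19, 91.82, 361.21 and 129.11 TPM in mES GFP-, 5C GFP+, 5C GFP-, 5C GFP+ (primed) and R1 ESC (primed). Cldn7, a tight junction claudin, had 2.89 and 3.32 TPM and then 87.93, 81.86, 42.81, 151.3 and 56.09 TPM in the same order. Esrp1, which controls epithelial splicing, had 0.82 and 0.92 TPM and then 49.2, 88.54, 27.19, 86 and 58.21 TPM. Krt18 was therefore higher in mES GFP- and 5C GFP+ (primed), while Esrp1 was higher in 5C GFP+ and 5C GFP+ (primed). Podxl, the sialomucin of the apical surface, had 5.38 and 5.92 TPM and then 84.75 to 653.8 TPM. Perp, a desmosomal protein gene that was also on the list of keratinocyte markers, had 11.99 and 6.25 TPM and then 68 to 475.54 TPM. Not all epithelial genes were low in mES GFP+ and 5C GFP+ (naive). E-cadherin (Cdh1) had 294.61 and 301.93 TPM in mES GFP+ and 5C GFP+ (naive) and 80.33 to 283.66 TPM in the others, and Epcam had 207.51 and 203.76 TPM. Of the 9 epithelial markers that are no members, 6 were lower in 5C GFP+ (naive) than in 5C GFP+ and 6 in mES GFP+ than in mES GFP-. Keratinocyte markers summed to 95.05 and 83.14 TPM in the low libraries, 982.58 TPM in mES GFP-, 480.56 TPM in 5C GFP-, 312.56 TPM in 5C GFP+ and 133.88 and 128.19 TPM in the primed ones, and their part in the epithelial members was not tested.

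Transporters and metabolic enzymes supplied several of the highest scores. Slc39a8, a zinc and manganese importer, had 1 read in mES GFP+ and none in 5C GFP+ (naive), with 41.11 TPM in mES GFP-, 89.62 TPM in 5C GFP+, 88.38 TPM in 5C GFP-, 134.16 TPM in 5C GFP+ (primed) and 75.13 TPM in R1 ESC (primed). The lowest of the 5 was 374 times the value in mES GFP+ (65.8 to 14561), an interval that shows how little 1 read says. The membrane-bound carbonic anhydrase gene Car4 had no reads in either low library and 213.68, 80.44, 107.7, 62.65 and 32.65 TPM in mES GFP-, 5C GFP+, 5C GFP-, 5C GFP+ (primed) and R1 ESC (primed). Its lowest value of the 5 was at least 18.7-fold higher by the lower end of the exact interval, and 23.3 times the TPM that 3 reads would give in a low library. ENSMUSG00000103057, for which the tables used here give no name or position, also had no reads in both and 26.77 to 54.24 TPM in the others, at least 26.5-fold higher by the exact interval and 33.1 times the TPM of 3 reads. Slc16a3, the lactate exporter of glycolytic cells, had 2.22 and 1.72 TPM and then 406.47, 154.19, 89.69, 146.37 and 188.47 TPM. Slc39a8 and Slc16a3 thus differed in order, with the first highest in 5C GFP+ (primed) and the second in mES GFP-.

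Among the enzymes, the nucleotide pyrophosphatase gene Enpp3 had 2.96 and 1.39 TPM in the low libraries and 83.07 to 259.31 TPM in the others. Pla2g7, a secreted phospholipase, had 0 and 0.32 TPM and then 16.38 to 307.27 TPM, and the microsomal glutathione transferase gene Mgst1 0.62 and 0 TPM and then 17.39 to 412.6 TPM, both with the primed libraries at the lower end. Mgst1 was the only member among 26 glutathione and antioxidant genes, 16 of which reached 10 TPM in each of the 5 libraries. Of the others on this list, 8 of 24 tested were lower in 5C GFP+ (naive) than in 5C GFP+. The glycolytic enzyme gene Pfkl had 31.67 and 31.04 TPM and then 131.53 to 223.1 TPM, and Fabp5, a fatty acid carrier, 86.1 and 72.99 TPM and then 312.62 to 936.22 TPM. Both low values of Fabp5 were above the median of the 7457 genes, which was 44.57 to 52.45 TPM in the 7 libraries. The retinoic acid binding protein gene Crabp1 had 4.95 and 4.07 TPM and then 18.51 to 189.38 TPM.

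Basement membrane and matrix genes gave 9 members. The collagen IV genes Col4a1 and Col4a2, which lie head to head on chromosome 8, had the same order of levels in the 5 libraries. Col4a1 had 1.24 and 0.94 TPM in mES GFP+ and 5C GFP+ (naive) and 289.01, 25.62, 190.93, 25.31 and 45.91 TPM in mES GFP-, 5C GFP+, 5C GFP-, 5C GFP+ (primed) and R1 ESC (primed). Col4a2 had 1.04 and 0.5 TPM and 193.08, 13.71, 125.08, 10.64 and 28.16 TPM in the same order, so both were higher in the GFP- libraries than in the other 3. Fbln2, a fibulin, had 5.35 and 3.72 TPM and then 20.37 to 251.38 TPM, and Mmp2 and Mmp14, 2 matrix metalloproteinases, 19.14 to 111.68 and 22.35 to 162.53 TPM in the 5. Cthrc1, a secreted collagen triple helix protein, stood apart from these with its highest value, 54.27 TPM, in 5C GFP+ and 0.72 and 0 TPM in the low libraries. Of the matrix genes that are no members, 10 of 33 tested were lower in 5C GFP+ (naive) than in 5C GFP+ and 32 of 39 in mES GFP+ than in mES GFP-.

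Receptors and their adaptors gave 16 members and secreted ligands 10. Ramp3, a partner of calcitonin-type receptors, had 0.26 and 0.73 TPM in the low libraries and 30.13 to 136.47 TPM in the others. Epha1 and Ddr1 were the 2 receptor tyrosine kinases, of 31 on the list, 10 of which reached 10 TPM in each of the 5 libraries. Epha1 had 1.03 and 2.17 TPM and was highest in both primed libraries, at 108.66 and 125.1 TPM. It had 11.7 to 18.69 TPM in mES GFP-, 5C GFP+ and 5C GFP-. Ddr1, a collagen receptor, had 3.5 and 2.75 TPM and then 25.16 to 108.09 TPM. The ephrin gene Efnb2 and the semaphorin gene Sema4c had at most 1.89 and 2.1 TPM in the low libraries and 17.66 to 42.54 and 10.5 to 34.33 TPM in the others. Fzd7, a Wnt receptor and the single member among 28 Wnt pathway genes, had 4.11 and 2.18 TPM and then 34.04 to 85.01 TPM, with the highest value in 5C GFP+. Only 9 of the 28 reached 10 TPM in each of the 5 libraries. The neuropeptide gene Npy had 6.1 and 6.88 TPM and then 78.58 to 475.29 TPM. Igfbp2, a carrier of insulin-like growth factors, had the highest low values of all members, 128.41 and 148.09 TPM, against 586.48 to 918.31 TPM.

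Transcription and chromatin factors gave 16 members. Id1, an inhibitor of bHLH factors and a BMP target, had 4.19 and 4.51 TPM in mES GFP+ and 5C GFP+ (naive) and 414.17, 98.22, 390.61, 68.99 and 68.62 TPM in mES GFP-, 5C GFP+, 5C GFP-, 5C GFP+ (primed) and R1 ESC (primed), so both GFP- libraries stood above the rest. Myrf, a membrane-bound factor known from myelin genes, had 0.37 and 0.15 TPM and 21.74, 60.31, 10.32, 33.5 and 41.18 TPM in the same order, with 5C GFP+ highest. Foxj1, the factor of motile cilia, had 0.59 and 0.75 TPM and then 16.71 to 50.16 TPM. The neural factor gene Sox11 closed the list with a score of 1.57, 3.54 and 5.52 TPM in the low libraries and 18.35 to 65.32 TPM in the others.

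Kinases, phosphatases and second messenger genes gave 13 members. Capn2, the large subunit of a calcium-dependent protease, had 1.6 and 0.47 TPM in mES GFP+ and 5C GFP+ (naive) and 228.87, 43.73, 143.49, 62.8 and 83.98 TPM in mES GFP-, 5C GFP+, 5C GFP-, 5C GFP+ (primed) and R1 ESC (primed). Mapk12, the p38 gamma kinase gene, had 0.5 and 0.58 TPM and was highest in the primed libraries, at 53.75 and 32.35 TPM. It had 12.11 to 24.77 TPM in mES GFP-, 5C GFP+ and 5C GFP-. Pea15a, whose protein binds ERK and keeps it in the cytoplasm, had 3.04 and 2.18 TPM and then 29.09 to 83.83 TPM. Dapk1, the death-associated kinase gene, had 5.14 and 3 TPM and then 21.15 to 94.69 TPM, again with the primed libraries highest, whereas the cyclic GMP phosphodiesterase gene Pde9a had 1.55 and 2.29 TPM and then 13.51 to 153.8 TPM, with the primed libraries lowest. No role was assigned to 19 members, among them Fndc4, with 0.42 and 0.98 TPM in the low libraries and 34.59 to 88.17 TPM in the others, and the membrane protein gene Tmem88, with 0.41 and 0.72 TPM and then 16.78 to 30.46 TPM.

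Of 31 imprinted genes in the tables, 5 were members. The noncoding RNA H19 (ENSMUSG00000000031, chromosome 7, 142575529 to 142578143) had the widest range among the 5, 62.7-fold. It had 7.45 and 3.34 TPM in mES GFP+ and 5C GFP+ (naive), 3110.22 TPM in mES GFP-, 296.76 TPM in 5C GFP-, 280.75 TPM in R1 ESC (primed), 70.01 TPM in 5C GFP+ (primed) and 49.62 TPM in 5C GFP+. Its paternally expressed neighbour Igf2 was no member, with 5.94 TPM in 5C GFP+, 1.35 and 1.4 TPM in the low libraries and 972.02 TPM in mES GFP-. Nnat (neuronatin) had 3.64 and 3.47 TPM and 109.78, 45.7, 223.26, 27.23 and 317.53 TPM in mES GFP-, 5C GFP+, 5C GFP-, 5C GFP+ (primed) and R1 ESC (primed). The adaptor gene Grb10 had 15.84 and 9.11 TPM and then 101.21 to 688.01 TPM, the retrotransposon-derived Peg10 7.89 and 4.48 TPM and then 36.91 to 319.57 TPM, and Gnas, the stimulatory G protein gene, 100.12 and 69.79 TPM and then 349.21 to 1390.77 TPM. Meg3 and Rian, maternally expressed noncoding RNAs of another domain, kept 318.01 and 301.93 TPM and 408.69 and 376.71 TPM in the low libraries. Of the imprinted genes that are no members, 7 of 22 tested were lower in 5C GFP+ (naive) than in 5C GFP+ and 13 of 26 in mES GFP+ than in mES GFP-.

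**Figure D3:**
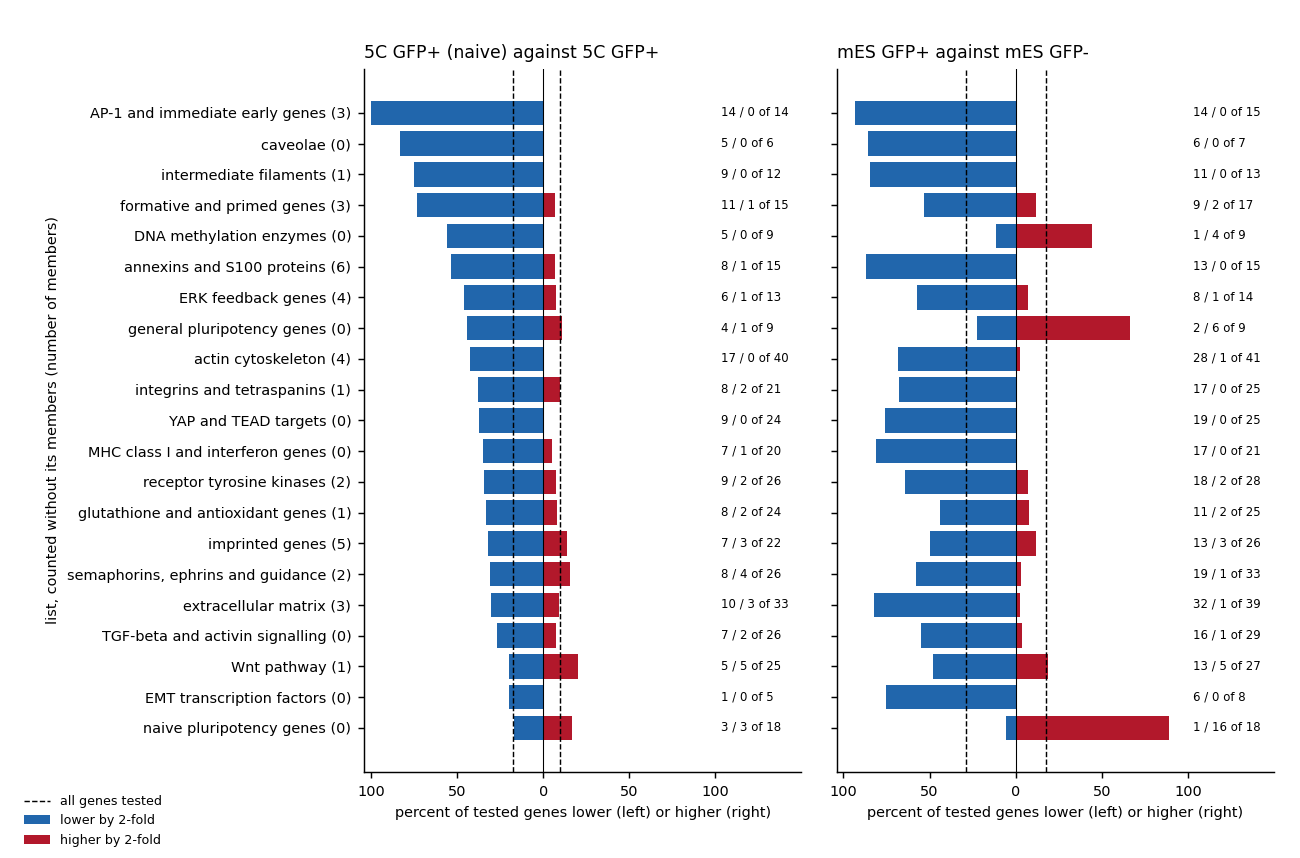
Share of each gene list, without its members, that was lower (blue, to the left) or higher (red, to the right) by 2-fold or more on the log2(TPM + 1) scale in 5C GFP+ (naive) than in 5C GFP+ and in mES GFP+ than in mES GFP-, with the counts lower / higher of those tested at the right, the shares over all genes as dashed lines and the number of members in brackets. The AP-1 and immediate early genes have the longest blue bars on the left, with 14 of 14, and the naive pluripotency genes the shortest, with 3 of 18.

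Lists without members were counted in the same way. Naive pluripotency genes were higher in mES GFP+ than in mES GFP- for 16 of 18, but 3 were lower and 3 higher in 5C GFP+ (naive) than in 5C GFP+. DNA methylation enzymes were lower in 5 of 9 in 5C GFP+ (naive) than in 5C GFP+ and higher in 4 of 9 in mES GFP+ than in mES GFP-. General pluripotency genes were lower in 4 of 9 in the first comparison and higher in 6 of 9 in the second. In the 2 comparisons, caveolar genes were lower in 5 of 6 and 6 of 7, YAP and TEAD targets in 9 of 24 and 19 of 25, TGF-beta and activin genes in 7 of 26 and 16 of 29, MHC class I and interferon genes in 7 of 20 and 17 of 21 and EMT transcription factors in 1 of 5 and 6 of 8. Of the lists with 1 or 2 members, and without these, intermediate filaments were lower in 9 of 12 and 11 of 13, integrins and tetraspanins in 8 of 21 and 17 of 25, receptor tyrosine kinases in 9 of 26 and 18 of 28, semaphorins, ephrins and guidance genes in 8 of 26 and 19 of 33, Wnt pathway genes in 5 of 25 and 13 of 27 (with 5 higher in each) and glutathione and antioxidant genes in 8 of 24 and 11 of 25. The fibroblast markers were lower in 5 of 12 and 17 of 17, and their part in the second comparison was not tested. Among markers of other cell types, those of keratinocytes were lower in 4 of 5 and 6 of 7, trophoblast in 2 of 5 and 6 of 9, primitive endoderm in 0 of 2 and 9 of 10, macrophages in 2 of 4 and 4 of 6, endothelium in 4 of 5 and 6 of 7 and neural progenitors in 3 of 8 and 6 of 9.

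The members were next compared among the libraries in which they were high, with the 2-fold rule above. These values too were used by the rule through their minimum, so the counts are read as descriptions beside the shares over all genes, and each fold below is a ratio of TPM values. In 5C GFP+ against 5C GFP+ (primed), 12 members were higher and 29 lower, that is 8% and 19.3% of the members, where 16.1% of all genes tested were higher and 13.7% lower. Among the 7457 genes with at least 10 TPM in the 5 libraries, from which the members came, 6.72% were higher and 5.04% lower. Fgf5 was 14.9-fold lower in 5C GFP+ (interval 12.7 to 17.6), the actin binding drebrin gene Dbn1 12.5-fold (10.9 to 14.5, from 14.01 against 175.55 TPM), Epha1 9.29-fold (8.06 to 10.7), Krt18 7.496-fold (6.72 to 8.38) and Npy 6.05-fold (5.25 to 6.999). Higher in 5C GFP+ were the immediate early genes Jun, 3.65-fold (3.32 to 4.01), and Egr1, 3.02-fold (2.85 to 3.20), the class IIa deacetylase gene Hdac7, 3.10-fold (2.72 to 3.54), the neurotrophic factor gene Metrn, 2.49-fold (2.20 to 2.84), and the epithelial GTPase gene Rab25, 2.51-fold (2.11 to 2.99).

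Against 5C GFP-, the cells of the same culture without GFP, 5C GFP+ had 7 members higher and 60 lower, 4.67% and 40% of the members, where 8.45% of all genes were higher and 22.6% lower, and 3.94% and 8.68% of the 7457. Mgst1 was 10.2-fold lower in 5C GFP+ (8.53 to 12.3), Crabp1 10.2-fold (8.06 to 13.1), the membrane protein gene Emp3 10.1-fold (8.003 to 12.9) and Fbln2 7.84-fold (7.18 to 8.56). The 7 that were higher in 5C GFP+ were Otx2, 7.15-fold (6.15 to 8.36), Myrf, 5.84-fold (5.03 to 6.81), Esrp1, 3.26-fold (2.91 to 3.65), Rab25, 2.90-fold (2.34 to 3.60), Fzd7, 2.497-fold (2.29 to 2.73), the membrane serine protease gene Prss8, 2.28-fold (1.79 to 2.92), and the adaptor gene Grb7, 2.12-fold (1.78 to 2.53). Fibroblast markers moved with this comparison. For the 16 that reached 1 TPM in 5C GFP-, the value in 5C GFP+ was a median of 4.91% of that in 5C GFP- and at most 26.7%. The members had a median of 56.8%, 27 of them were at or above 100%, and the lowest was at 9.77%. The 7457 genes had a median of 93.4%, and 3246 of them were at or above 100%. The part of remaining fibroblasts in the member levels was not tested.

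**Figure D4:**
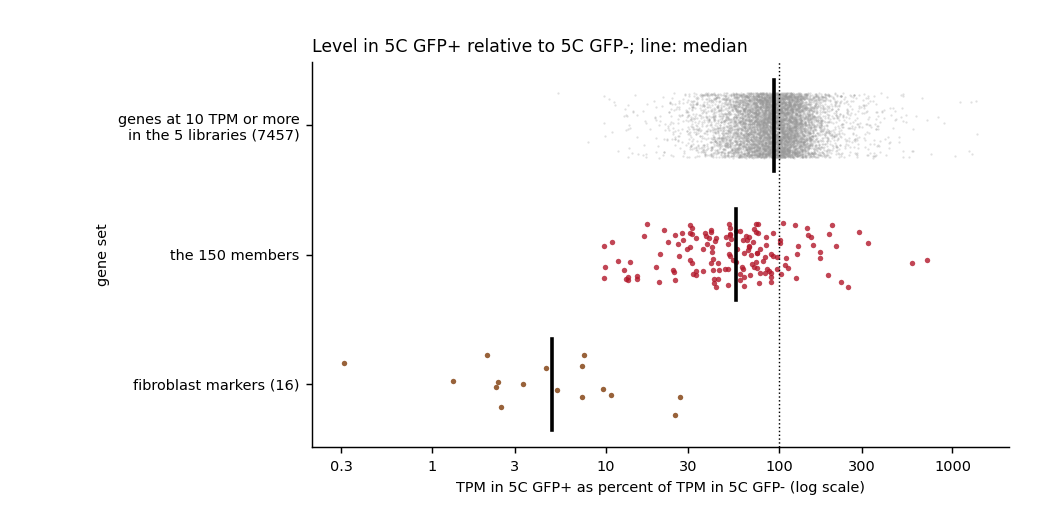
TPM in 5C GFP+ as a percentage of TPM in 5C GFP- for 16 fibroblast markers, the 150 members and the 7457 genes with at least 10 TPM in the 5 libraries, on a log axis with 1 point per gene. Bars mark the medians, 4.91%, 56.8% and 93.4%, and the dotted line marks equal levels.

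**Figure D5:**
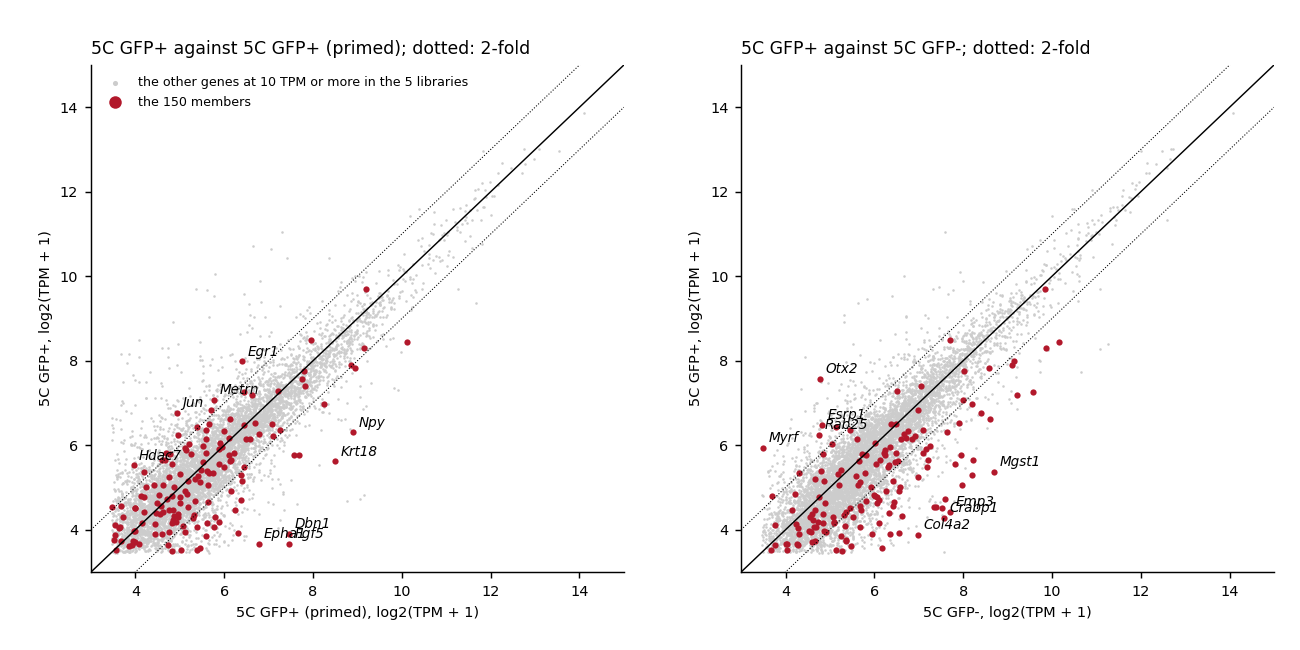
Level of each member (red) and of the other genes with at least 10 TPM in the 5 libraries (grey) in 5C GFP+ against 5C GFP+ (primed) on the left and against 5C GFP- on the right, as log2(TPM + 1), with dotted lines at 2-fold. On the right 60 members lie below the lower line and 7, with Otx2 and Myrf farthest, above the upper one.

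Between the GFP- libraries of the 2 media, 19 members were higher in 5C GFP- than in mES GFP- and 30 lower (12.7% and 20% of the members), where 9.68% of all genes were higher and 10.1% lower, and 4.22% and 3.23% of the 7457. H19 was 10.48-fold lower in 5C GFP- (10.1 to 10.9), Peg10 8.66-fold (8.03 to 9.34), S100a6 5.29-fold (5.01 to 5.58), Krt18 4.94-fold (4.49 to 5.44) and Pla2g7 4.85-fold (4.40 to 5.35). Higher in 5C GFP- were Crabp1, 3.74-fold (3.14 to 4.47), Sox11, 3.56-fold (3.26 to 3.89), Dusp6, 3.44-fold (3.08 to 3.84), Spry4, 3.17-fold (2.88 to 3.51) and Enpp3, 3.12-fold (2.91 to 3.36). Of the 4 members on the ERK feedback list, Dusp6 and Spry4 were higher in 5C GFP- and Dusp5 was lower. Dusp5 had 59.55 TPM in 5C GFP- and 141.28 TPM in mES GFP-. Dusp4 had 47 and 59.91 TPM, which did not reach 2-fold. Fibroblast markers also differed, as their sums of 596 and 1278 TPM above show.

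Fewer members differed between the 2 primed libraries than in the 3 comparisons above, as did fewer of all genes. In 5C GFP+ (primed) 8 members were higher and 11 lower than in R1 ESC (primed), 5.33% and 7.33% of the members, where 2.3% of all genes were higher and 5.09% lower, and 0.469% and 0.590% of the 7457. Imprinted genes stood at both ends. Nnat was 11.7-fold lower in 5C GFP+ (primed) (9.98 to 13.7) and H19 4.01-fold lower (3.69 to 4.36), whereas Grb10 was 2.98-fold higher (2.84 to 3.14). Crabp1 was 3.65-fold lower (3.05 to 4.38), Npy 2.95-fold higher (2.61 to 3.35), Krt18 2.80-fold higher (2.57 to 3.05) and Cldn7 2.70-fold higher (2.32 to 3.15). The 2 libraries differ in origin, genotype and, by the sums of 136 and 381 TPM, in fibroblast markers, whose part was not tested.

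In the low libraries, 130 members reached 1 TPM in mES GFP+ or 5C GFP+ (naive). Of these, 5 were higher in mES GFP+ and 1 lower (3.85% and 0.769%), where 6.27% of all genes were higher and 2.49% lower, and 1.56% and 0.738% of the 7457. The forkhead factor gene Foxp1 had 4.84 TPM in mES GFP+ and 0.73 TPM in 5C GFP+ (naive), a ratio of 6.63 (2.003 to 34.8), and Dusp5 had 2.63 and 0.71 TPM, a ratio of 3.70 (1.58 to 9.72). Eif4g3, Igdcc4 and Ppp1r9a were the other 3, with ratios of 2.57, 3.75 and 3.29. Spry4 was the one that was lower, with 0.4 TPM in mES GFP+ and 1.92 TPM in 5C GFP+ (naive), and 5C GFP+ (naive) had 4.8 times the level of mES GFP+ (2.03 to 13.9). Dusp6 had 1.98 times the level in 5C GFP+ (naive) (1.31 to 3.07) and did not reach 2-fold on the log2(TPM + 1) scale. The median of mES GFP+ minus 5C GFP+ (naive) was 0.24 for the members, against 0.16 over all genes tested and 0.10 over the 7457. The median-ratio factors of the 2 libraries alone differed by 0.13 in the same direction. With FPKM in place of TPM, Foxp1 alone of these 6 stayed past 2-fold. FPKM was a median of 0.545 times TPM in mES GFP+ and 0.574 times in 5C GFP+ (naive). The added 1 and the minimum of 1 were kept, and they weigh more on these smaller values.

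At the edge of the set, Emp3, Trib1 and Sox11 were the last 3 members with scores of 1.58, 1.57 and 1.57, and Vsig10, Inf2 and the noncoding RNA Malat1 the first 3 outside it, with 1.56 each. Malat1 had 56.04 and 65.72 TPM in the low libraries and 195.46 to 894.89 TPM in the others. The position of the members was not used by the rule. Of the 149 with a position in GENCODE M21 on GRCm38, 147 are protein coding, and chromosomes 1 and 11 hold 15 each (10.1%, against 5.46% and 8.65% of the 7457 genes) and the X chromosome 2 (1.34%, against 3.03%). Their median gene span was 14683 bases, against 22934 bases for the 7433 of the 7457 genes with a position, and their median transcript length 2484 bases against 2309. Within 100 kilobases of each other lay 8 pairs of members, and 7 of them had no coding gene between: Igsf9 and Tagln2, Arhgef25 and Dtx3, P3h4 and Fkbp10, Dbn1 and Pdlim7, Slc48a1 and Hdac7, Ece1 and Eif4g3, and Col4a1 and Col4a2. Such pairs were not counted among the 7457 genes, so the number does not show whether members lie closer together than other genes. The gene bodies of Slc48a1 and Hdac7 overlap by 29 bases and those of Col4a1 and Col4a2 by 22 bases on opposite strands, where reads of a library that does not mark the strand cannot be told apart.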

How the data were processed

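RNA-Seq of 7 libraries, 1 per group, was analysed. Groups were taken from the sample titles. The authors prepared TruSeq libraries from total RNA, sequenced them on a MiSeq and quantified each Ensembl gene with RSEM. The submitters' processing notes name Bowtie, RSEM and mm10, with versions not given in the sources used here. Deposited expected counts are the authors' estimated counts and are not normalized. The authors' TPM is scaled to the same total in each library, and the deposited FPKM values are counts per effective length and library depth. The deposited table's length column (mean transcript length per gene) is the authors' own value.

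Differences were taken on log2(TPM + 1), which understates the change of low genes. Counts at 2-fold used genes that reached 1 TPM in one of the libraries compared. No model was fitted, because a group had 1 library. Expected counts were rounded for the exact 95% intervals, which cover counting error only. Read floors used 3 counts. The members, role groups and gene lists were chosen with earlier results of these data known, and the role groups after their values were seen. Genes were named if they were among the 20 highest scores, on a list, among the largest differences of a comparison, at the edge of the set, without reads in both low libraries, the most abundant non-members of a list or reference markers, and others were picked by role. Symbols came from a gene table, and coordinates from GENCODE M21. The interval, the 2-fold count and the score were tested on simulated data. Alternatives were a pseudocount of 0.1, FPKM, median-ratio rescaling, other TPM minimums and leaving out each library. Scripts ran in Python 3.11.15 with scipy 1.17.1, pandas 2.3.3, numpy 2.4.6, matplotlib 3.10.9. Missing promoter entries include Egr1, Dusp4, Id1, Esrp1, Spry4 and H19.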

Additional observations from a re-analysis of the deposited data

Results flagged for a closer look

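In 5C medium GFP+ cells were at or above GFP- cells for 27 of the 150 members, against the direction in mES medium. Among the 7457 genes with at least 10 TPM in the 5 libraries this was so for 3246, a larger share. For 7 of the 27 members the 5C difference passed 2-fold. These are 4.67% of the members, against 3.94% of the 7457 and 8.45% of all genes. In log2(TPM + 1), 5C GFP+ was above 5C GFP- by 2.79 for Otx2, 2.44 for Myrf, 1.67 for Esrp1, 1.498 for Rab25, 1.30 for Fzd7, 1.12 for Prss8 and 1.04 for Grb7. In mES medium, GFP+ minus GFP- was -4.86 for Otx2, -4.05 for Myrf, -4.79 for Esrp1, -3.76 for Rab25, -2.999 for Fzd7, -2.87 for Prss8 and -2.72 for Grb7. The direction in mES medium is fixed by the rule that chose the genes, and the difference between the media was not tested, since each group had 1 library. Esrp1, Rab25 and Prss8 are epithelial genes, and Otx2 and Myrf are transcription factors.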

How the results depend on the processing

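No paired analysis was possible because each group had 1 library, and no spread between cultures could be estimated. Of the 150 members, 147 stayed among the 150 highest scores with a pseudocount of 0.1, 142 with median-ratio rescaling and 109 with a minimum of 5 TPM. With FPKM 86 stayed and with a minimum of 20 TPM 80 stayed, because only 86 members had 10 FPKM and only 80 had 20 TPM in the 5 libraries. Leaving out 1 library in turn kept 76 to 140, with 76 kept without 5C GFP+, the library that most often set the lowest of the 5. In mES GFP+ against 5C GFP+ (naive), 5 members were higher and 1 lower. A pseudocount of 0.1 gave 21 and 3, and FPKM gave 1 and 0, with Foxp1 the one kept. Of 51 alternatives that kept all libraries, 45 were within 1.5 times the main value. Some of the 51 are counts pooled over 475 list genes. These pooled counts kept the members, whose direction the rule fixed, and are not reported above. The list counts given above were not recounted under the alternatives. On the log2 scale, the median-ratio factors differed by -0.16 in 5C GFP+ against 5C GFP- and by 0.13 in mES GFP+ against 5C GFP+ (naive). Rescaling subtracted these differences from all genes. Depth limits the lowest values, since 9 members had at most 3 reads in both low libraries.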
